A study of Mus musculus with 8 samples.

Results

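A set of 9 transcription regulators of haematopoietic stem cell (HSC) self-renewal, Mecom, Hlf, Meis1, Mllt3, Erg, Fli1, Prdm16, Etv6 and Gfi1, was followed in RNA-seq of sorted HSCs. They were chosen by gene symbol, and 9 of 9 were found among the 11854 named entries of the table. All 9 were also among the 10989 genes tested. HSCs, which reside in the marrow, divide to keep their own pool and to supply every blood lineage. The cells came from bone marrow of 8 mice on a C57BL/6 background, 4 wild type and 4 Nupr1-/-, with 1 polyadenylated RNA library per mouse. No drug treatment, age or sex is named in the labels, and the sources used here do not say which part of Nupr1 was deleted. Nupr1 encodes a small stress-induced chromatin protein, and the series title ties it to HSC quiescence and p53 signalling. The comparison asks how the level of each factor differed between the genotypes.

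Self-renewal of HSCs depends on a small network of nuclear factors that hold the stem cell programme and restrain differentiation. Mecom and Prdm16 encode related PR domain zinc finger proteins. Erg, Fli1 and Etv6 encode ETS family factors. Meis1 encodes a TALE homeodomain partner of HOX proteins, Hlf a PAR bZIP factor and Gfi1 a zinc finger repressor. Mllt3 encodes AF9, a reader of acylated histones that joins the super elongation complex and the DOT1L complex. Mecom, Hlf, Prdm16 and Mllt3 are commonly used to mark the most primitive HSCs. Most of these genes are also partners in leukaemia fusions or are overexpressed in leukaemia.

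Start-site sequences are shown for the factor that passed the test (Mllt3), for one whose value pools transcripts of distant starts (Mecom), and for the one with an ETS match (Meis1). Of the 9 factors 8 were matched to RefSeq promoter entries (GRCm38.p6), all but Fli1, with 13 windows in all. Each line gives the 250 bases before a start, 5′ to 3′ on the gene's strand. Capitals mark a match to TGACAG, a MEIS binding sequence, or to CCGGAAGT, an ETS binding sequence, on either strand.
Mllt3, start at the 5′ end of the gene (chr4:88033408-88033657, minus strand): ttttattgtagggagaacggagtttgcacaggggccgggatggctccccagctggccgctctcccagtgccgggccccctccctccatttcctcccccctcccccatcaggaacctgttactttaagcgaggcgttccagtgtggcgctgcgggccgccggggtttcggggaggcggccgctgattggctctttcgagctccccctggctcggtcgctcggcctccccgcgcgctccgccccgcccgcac
Mllt3, internal start (chr4:87806324-87806573, minus strand): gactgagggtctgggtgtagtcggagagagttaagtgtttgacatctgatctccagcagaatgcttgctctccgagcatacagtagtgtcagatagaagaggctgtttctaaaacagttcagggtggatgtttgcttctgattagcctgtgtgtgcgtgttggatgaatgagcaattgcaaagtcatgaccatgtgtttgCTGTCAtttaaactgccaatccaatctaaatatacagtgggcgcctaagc
Mecom, upstream start (chr3:30509760-30510009, minus strand): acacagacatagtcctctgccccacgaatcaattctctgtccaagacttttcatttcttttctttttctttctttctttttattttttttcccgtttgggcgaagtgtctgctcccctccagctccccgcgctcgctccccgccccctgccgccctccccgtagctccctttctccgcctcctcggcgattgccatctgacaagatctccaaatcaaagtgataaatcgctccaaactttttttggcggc
Mecom, internal start (chr3:30013205-30013454, minus strand): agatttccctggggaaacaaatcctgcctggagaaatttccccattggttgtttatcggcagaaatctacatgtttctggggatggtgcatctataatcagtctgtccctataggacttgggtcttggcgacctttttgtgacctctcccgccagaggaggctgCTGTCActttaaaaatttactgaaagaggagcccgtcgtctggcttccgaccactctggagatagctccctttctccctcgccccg
Meis1 (chr11:19018970-19019219, minus strand): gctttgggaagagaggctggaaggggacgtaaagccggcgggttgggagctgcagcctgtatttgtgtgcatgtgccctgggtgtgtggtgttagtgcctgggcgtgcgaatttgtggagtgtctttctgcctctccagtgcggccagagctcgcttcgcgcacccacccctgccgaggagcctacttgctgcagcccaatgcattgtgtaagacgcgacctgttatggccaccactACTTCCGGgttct
CCGGAAGT was found in 1 of the 13 windows, that of Meis1, and in 2.88% of 32851 RefSeq windows of this length. TGACAG was found in 3 of the 13 (the internal starts of Mllt3 and Mecom and 1 start of Erg) and in 15.9% of all windows. TTACGTAA, the PAR bZIP sequence, was in 0 of the 13 and 0.113% of all. AAATCAC, which holds the core bound by GFI1, was in 0 of the 13 and 2.75% of all, and a p53 half-site in 0 of the 13 and 7.13% of all. Both strands were searched, and no 2 matches in the printed windows overlap. A match describes letters and does not show binding. One value per gene was deposited, so the starts of Mllt3, and the long and short forms of Mecom, were counted together.

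The 8 libraries held 2296101 to 4769401 reads in the table, recovered from the deposited normalised values. Nupr1 itself was 285, 134, 245 and 318 normalised reads across wild type libraries 1 to 4, against 179, 173, 201 and 119 across labelled knockout libraries 1 to 4 (limma adjusted p = 0.433). The targeted gene did not separate the groups, so the groups are named below as labelled. Xist, transcribed from the inactive X of female cells, was 107 to 159 in the libraries labelled knockout and 0 to 11.8 in wild type. The groups thus also differ in this RNA without overlap, and a sex difference cannot be told apart from genotype. Markers of HSCs (11 of 11 in the table, led by Ly6a and Kit) summed to 3886 to 4889 normalised reads in wild type and 3590 to 4791 in libraries labelled knockout. The list also holds the progenitor markers Cd34, Flt3 and Cd48, so this sum does not separate HSCs from progenitors. Of 8 tested megakaryocyte and platelet markers (led by Vwf and Itga2b), 4 rose and 0 fell, where 1.68% of all genes rose and 2.12% fell (limma, adjusted p under 0.05). The sum of these markers was 889 to 1288 in wild type and 2061 to 2602 in libraries labelled knockout. The erythroid sum (Hbb-bt, Epor and 3 others) was 141 to 341 and 293 to 385. Hbb-bt, its gene of highest mean, was 143 ± 21.5 in wild type and 129 ± 25.6 in libraries labelled knockout (SD, limma adjusted p = 0.846). Epor was 67.7 ± 78.6 and 135 ± 29.1 (limma adjusted p = 0.166). Of the 3 tested erythroid genes 1 rose, Klf1, an erythroid factor named after its values were seen (1.84 ± 1.43 and 56.3 ± 26.7 normalised reads, SD, n = 4). Klf1 reached the value of 10 needed for testing only in libraries labelled knockout, so its call carries no weight here. The B cell sum, of Ighm and Cd79b only, was 7600 in wild type library 4, 2111 in wild type library 3 and 212 to 423 in the other 6. In wild type and in libraries labelled knockout the sum was 983 to 2908 and 847 to 1445 for neutrophils (Prtn3 only) and 1632 to 3166 and 1419 to 2614 for monocytes (Lyz2 and Cd68). For T and NK cells (led by Lck and Nkg7) it was 202 to 636 and 185 to 504, and for endothelium (led by Emcn and Kdr) 182 to 684 and 205 to 344. Stromal signal, Col1a2 only, was 0 to 72.8 and 26.2 to 52.5. The remaining markers of these lists were not analysed here. In bulk RNA, fewer cells of a type and less RNA per cell cannot be told apart.

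Of the 9 factors, 1 fell in libraries labelled knockout (Mllt3), 0 rose and 8 did not pass the test, where 3.80% of all 10989 genes passed, 2.12% lower and 1.68% higher (limma, adjusted p under 0.05 over all genes). The log2 difference, labelled knockout minus wild type, lay below 0 for 7 of 9 factors and for 48.7% of all genes. Its median was -0.66 over the factors and 0.03 over all genes. An unadjusted p under 0.05 was found for 6 of 9 factors, all lower, against 19.7% of all genes, 9.75% lower and 9.91% higher. Of these 6, only Mllt3 had an exact permutation p under 0.05 (0.0286). The exact permutation p was 0.0571 for Mecom and Gfi1, and 0.0857 for Hlf, Erg and Prdm16. The groups did not overlap for 1 factor, where this held for 5.91% of all genes with the labelled knockout lower and 5.78% with it higher.

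**Figure D1:**
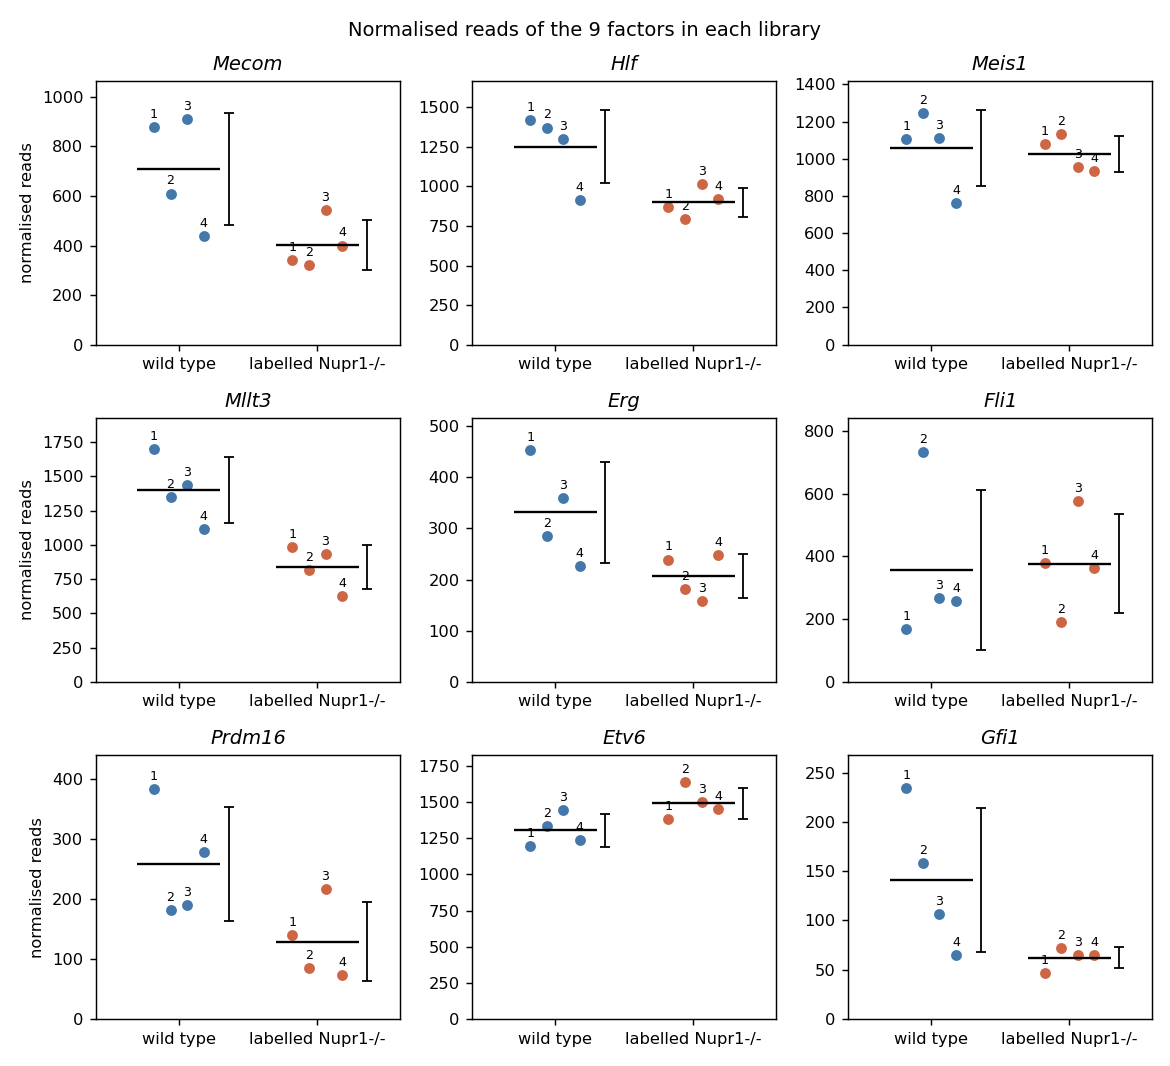
Normalised reads (y axis, from 0) of each factor in the 4 wild type libraries (blue) and the 4 labelled Nupr1-/- (orange); numbers are libraries, horizontal lines group means and bars SD (n = 4). Mllt3 is the factor whose groups do not overlap, and wild type library 4 lies low for Mecom, Hlf, Meis1, Erg and Gfi1.

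Mllt3 was 1697, 1348, 1435 and 1117 normalised reads across wild type libraries 1 to 4, against 983, 814, 931 and 625 across labelled knockout libraries 1 to 4. Every library labelled knockout lay below every wild type library, and library 4 of each group was the lowest of its group. The mean fell from 1399 ± 239 to 838 ± 159 (SD, n = 4), 1.67-fold on the log2 scale, with a log2 change of -0.74 ± 0.20 (SE; 95% interval -1.16 to -0.33; limma adjusted p = 0.0440). The exact permutation p was 0.0286, the smallest that 70 assignments can give (two-sided). Mllt3 (ENSMUSG00000028496.17) occupies chromosome 4 (mm10) from 87769925 to 88033364, minus strand, with 0 exonic bases shared with another gene. It was read 653 to 2437 times per library.

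The call for Mllt3 lay close to the threshold. It was lost without wild type library 1, 3 or 4 and without each of the 4 libraries labelled knockout (adjusted p 0.0533 to 0.128) and held without wild type library 2 (0.0275), with log2 differences from -0.85 to -0.61. It was also lost with edgeR (adjusted p = 0.0505) and without a filter on low values (0.0509), and held with DESeq2 (0.00899).

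GC content moved with the groups, and the call for Mllt3 was lost when the trend was removed. Across genes, which are not independent replicates, Spearman's rho of GC content with how far each library departed from a gene's mean was -0.303 to -0.138 in wild type and 0.15 to 0.302 in libraries labelled knockout. The longest Mllt3 transcript has 41.4% GC, and among 715 tested genes with 40 to 42% GC the median log2 difference was -0.50, with a middle range (quartiles) of -0.96 to -0.12 that holds the value of Mllt3. With the trend in GC content and transcript length removed from each library, the log2 difference of Mllt3 was -0.26 (limma adjusted p = 0.666), where 0.220% of all genes passed. The megakaryocyte marker sums and Xist, given above, also separated the groups without overlap. Their part in the difference of Mllt3 was not tested and cannot be told apart from genotype in these libraries.

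**Figure D2:**
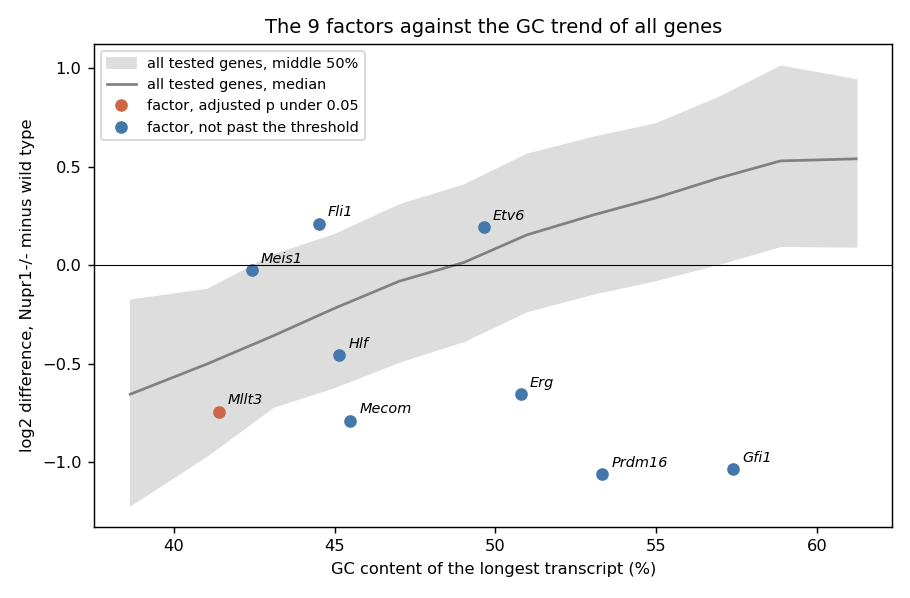
Log2 difference (y axis) against GC content of the longest transcript (x axis, percent) for the 9 factors (points) and for all tested genes in GC bins (grey line, median; band, quartiles). Mllt3 lies within the band of genes of its GC content, and Mecom, Erg, Prdm16 and Gfi1 lie below theirs.

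Mecom encodes MDS1-EVI1 and EVI1, zinc finger factors needed to maintain long-term HSCs. It was 879, 610, 911 and 438 normalised reads across wild type libraries 1 to 4, against 341, 320, 545 and 400 across labelled knockout libraries 1 to 4. Of the libraries labelled knockout, 3 lay below all wild type libraries and library 3 lay inside the wild type range. The log2 difference of -0.79 ± 0.26 (SE; 95% interval -1.34 to -0.24), from 709 ± 226 to 402 ± 101 (SD, n = 4), did not pass (limma adjusted p = 0.105; exact permutation p = 0.0571). DESeq2 passed Mecom (adjusted p = 0.0480), and edgeR did not (0.103). DESeq2 passed 6.95% of all 10989 genes, a share that counts as not passed the genes to which it gave no adjusted p. With the GC trend removed the difference was -0.59 (limma adjusted p = 0.351). The gene spans chromosome 3 from 29951296 to 30548008, and 81 bases of its exons overlap the antisense gene Mecomos.

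Prdm16, the relative of Mecom that protects HSCs from oxidative stress, was 384, 181, 189 and 278 across wild type libraries 1 to 4, against 140, 84.8, 217 and 73.1 across labelled knockout libraries 1 to 4. Library 3 labelled knockout lay above wild type libraries 2 and 3, and the other 3 lay below all wild type libraries. The log2 difference was -1.06 ± 0.39 (SE; 95% interval -1.88 to -0.25; limma adjusted p = 0.137), with means of 258 ± 94.5 and 129 ± 65.8 (SD, n = 4). It was -1.34 with the GC trend removed (adjusted p = 0.150). Prdm16 was read 68 to 551 times per library, and 109 bases of its exons overlap the gene B230104I21Rik on the other strand.

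Hlf, a factor that marks HSCs and maintains their quiescence, was 1418, 1373, 1299 and 914 across wild type libraries 1 to 4, against 872, 797, 1016 and 920 across labelled knockout libraries 1 to 4. Wild type libraries 1 to 3 were above all 4 labelled knockout, and wild type library 4 lay among them. The log2 difference was -0.46 ± 0.19 (SE; 95% interval -0.86 to -0.06; limma adjusted p = 0.191), with means of 1251 ± 230 and 901 ± 91.9 (SD, n = 4). With the GC trend removed it was -0.23 (adjusted p = 0.671). Hlf occupies chromosome 11 from 90336536 to 90390895 and shares 0 exonic bases with another gene.

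Meis1, which limits oxidative metabolism in HSCs, was 1107, 1247, 1114 and 764 across wild type libraries 1 to 4, against 1078, 1131, 958 and 933 across labelled knockout libraries 1 to 4. All 4 libraries labelled knockout lay within the wild type range. Means were 1058 ± 206 and 1025 ± 94.7 (SD, n = 4), with a log2 difference of -0.03 and a 95% interval from -0.43 to 0.38 (limma adjusted p = 0.956). The sign of this difference was not stable: it was 0.38 with the GC trend removed (adjusted p = 0.463). Meis1 shares 1925 bases of exon sequence with the antisense gene Gm16140 and the gene Gm37818, and the library kit does not mark strand, so reads there cannot be assigned.

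None of the 3 ETS factors passed in limma, and their point estimates differed in sign. Erg, which sustains HSC self-renewal, was 454, 285, 360 and 227 across wild type libraries 1 to 4, against 239, 182, 158 and 247 across labelled knockout libraries 1 to 4. Of the latter, 2 lay below all wild type libraries, and wild type library 4 was lower than libraries 1 and 4 labelled knockout. The log2 difference of Erg was -0.66 ± 0.30 (SE; 95% interval -1.28 to -0.03; limma adjusted p = 0.229), and -0.81 with the GC trend removed (adjusted p = 0.261). Fli1, the close relative of Erg that also drives megakaryocyte genes, was 168, 733, 266 and 256 in wild type and 379, 190, 577 and 364 in libraries labelled knockout. Wild type library 2 was the highest of all 8 and wild type library 1 the lowest. The coefficient of variation of Fli1 was 71.8% within wild type, the widest of the 9 factors. The log2 difference of 0.21 ± 0.40 (SE) had a 95% interval from -0.64 to 1.06 (limma adjusted p = 0.821), so the error is wide.

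Etv6, an ETS repressor required for adult HSC survival in the marrow, was the steadiest of the 9 factors. It was 1198, 1336, 1450 and 1240 across wild type libraries 1 to 4, against 1385, 1637, 1499 and 1451 across labelled knockout libraries 1 to 4. Of the latter, 3 lay above all wild type libraries, although library 4 did so by a narrow margin. The coefficient of variation was 8.59% in wild type and 7.15% in libraries labelled knockout. The log2 difference of 0.19 ± 0.16 (SE; 95% interval -0.15 to 0.54) did not pass (limma adjusted p = 0.540; exact permutation p = 0.0571). Exons of Etv6 overlap the antisense gene Gm17089 by 135 bases.

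Gfi1, a repressor that restrains HSC proliferation, was read 32 to 336 times per library, before any scaling. It was 234, 159, 107 and 65.0 normalised reads across wild type libraries 1 to 4, against 46.7, 72.3, 64.5 and 64.8 across labelled knockout libraries 1 to 4. Wild type spanned 3.60-fold from lowest to highest, and its library 4 fell between the lowest and highest labelled knockout values. The log2 difference was -1.04 ± 0.47 (SE; 95% interval -2.02 to -0.05; limma adjusted p = 0.229), from 141 ± 72.8 to 62.1 ± 10.9 (SD, n = 4). With the GC trend removed it was -1.52 (adjusted p = 0.181). Exons of Gfi1 overlap the gene A430072P03Rik by 101 bases.

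Gfi1b, the paralog of Gfi1 that serves the erythroid and megakaryocyte lineages, rose. It was 430, 341, 301 and 227 normalised reads across wild type libraries 1 to 4, against 1002, 695, 660 and 613 across labelled knockout libraries 1 to 4, a log2 change of 1.20 (limma adjusted p = 0.0182; 0.73 and adjusted p = 0.230 with the GC trend removed). Within a library, log2 Gfi1 minus log2 Gfi1b ran from -1.79 to -0.88 in wild type and from -4.39 to -3.22 in libraries labelled knockout. This pair was compared after its values were seen and is given without a test. The rise of Gfi1b moved with the megakaryocyte marker sums, given above, and their part in it was not tested.

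**Figure D3:**
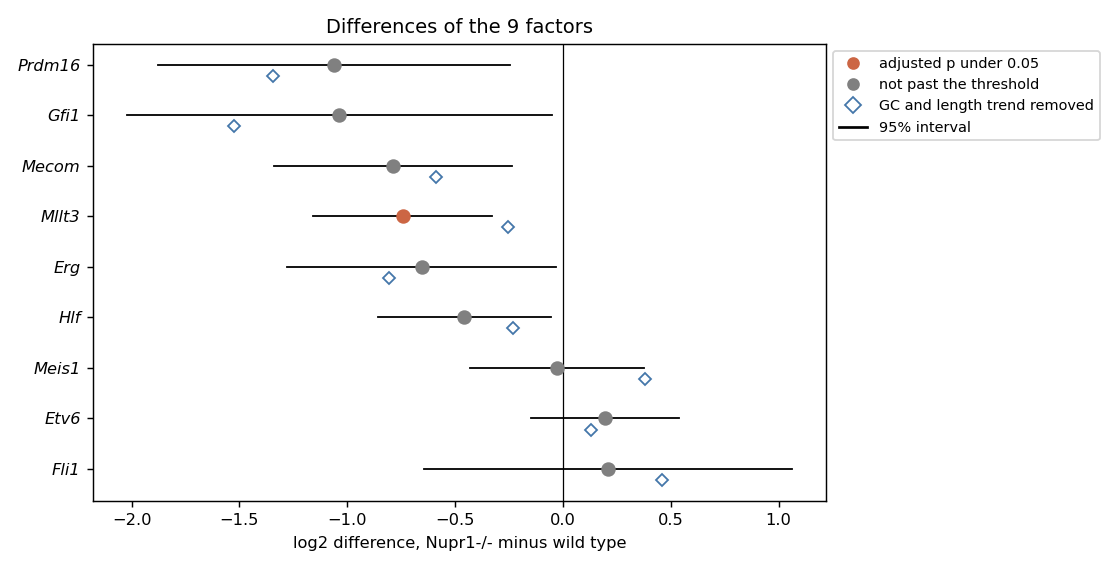
Log2 difference, labelled Nupr1-/- minus wild type (x axis), of each factor with its 95% interval (circles and lines) and after removal of the GC and length trend (diamonds). Mllt3 (orange) passes the test; its diamond lies at -0.26, while those of Gfi1 (-1.52), Prdm16 (-1.34) and Erg (-0.81) lie farther from 0 than their circles.

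Removal of the GC trend did not act on the factors alike. The difference became larger in size for 5 of the 9 (Meis1, Erg, Fli1, Prdm16 and Gfi1) and smaller for Mecom, Hlf, Mllt3 and Etv6. Gfi1 and Prdm16 lay far from genes of like GC content: the median log2 difference was 0.44 among 897 genes with 56 to 58% GC and 0.25 among 1147 genes with 52 to 54% GC. After removal 0 of 9 factors passed in limma, and their median log2 difference was -0.26, against 0.01 for all genes.

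Wild type library 4 was singled out after its values were seen. By normalised reads it was below the mean of the 8 libraries for 8 of the 9 factors, all but Prdm16. The count was 2 of 9 in each of the other wild type libraries and 6 to 8 in those labelled knockout. For Mllt3 the margin in wild type library 4 was narrow, and by log2 values it lay above the mean. Without wild type library 4 the groups did not overlap, with the labelled knockout lower, for 5 factors (Mecom, Hlf, Mllt3, Erg and Gfi1). This held for 7.88% of all genes (7.89% with the labelled knockout higher, 0 factors). With another library left out, the labelled knockout was lower without overlap for 3 factors without its library 3 (Mecom, Mllt3 and Prdm16; 8.01% of all genes), for 2 without its library 2 (Mllt3 and Gfi1; 7.59%) and for Mllt3 alone in the other 5 omissions. Etv6 was higher without overlap when wild type library 3 (8.14% of all genes higher) or library 1 labelled knockout (7.27%) was left out. In the fit without wild type library 4 none of the 9 passed: the adjusted p was 0.0533 for Mllt3, 0.0620 for Mecom, 0.111 for Hlf, 0.147 for Gfi1 and 0.181 for Erg (limma). The same library held 6740 normalised reads of Ighm, the immunoglobulin mu heavy chain, against 1387 in wild type library 3 and 0 to 166 in the other 6. The part of these B cell transcripts in the low values of library 4 was not tested.

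**Figure D4:**
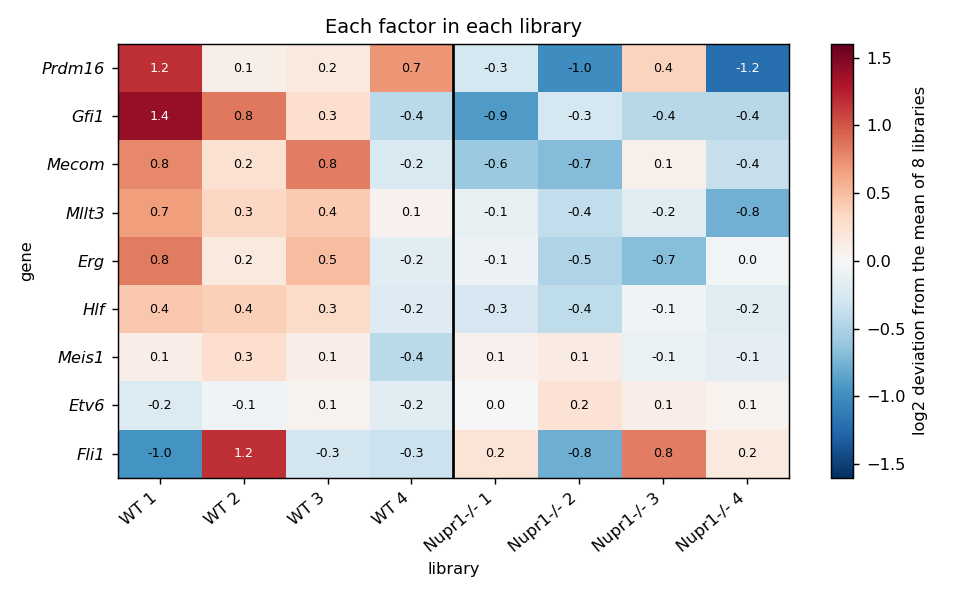
Log2(normalised reads + 1) of each factor (rows) in each library (columns), as deviation from the mean of the 8 libraries; WT is wild type, the others are labelled Nupr1-/-. By normalised reads, not the log2 values drawn, wild type libraries 1, 2 and 3 are each below the mean for 2 of 9 factors, and wild type library 4 for 8 of 9. On the log2 scale drawn, Mllt3 in wild type library 4 and Prdm16 in wild type libraries 2 and 3 lie above the mean.

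The factors varied together in part. Over the 8 libraries, which share the group difference and the GC trend, Pearson's r of log2 values was above 0 in 24 of 36 pairs. It was highest for Mecom and Hlf (0.93; 0.84 with each group centred on its mean), followed by Hlf and Gfi1 (0.88; 0.75) and Mllt3 and Prdm16 (0.83; 0.62). The lowest values were those of Etv6 with Prdm16 (-0.76, and -0.53 with groups centred), Mllt3 (-0.64 and -0.10) and Erg (-0.63 and -0.26). Erg with Fli1 was at -0.35 in either form. The share of all gene pairs with r above 0 was not computed. Of the 10989 tested genes, those most like Mllt3 over the 8 libraries were Rab8b (r = 0.964), a vesicle transport GTPase, Atp2b1 (0.962), a plasma membrane calcium pump, and Adam10 (0.961), a membrane protease. Their transcripts have 40.6%, 42.6% and 42.1% GC, near the 41.4% of Mllt3. Rab8b (limma adjusted p = 0.00852) and Adam10 (0.0235) fell, and Atp2b1 went from 131 ± 25.6 to 77.9 ± 10.8 without passing (0.312). Rab8b, Atp2b1 and Adam10 were picked for their likeness to Mllt3 over libraries that hold the group difference and the GC trend. Lower values in libraries labelled knockout and a GC content near that of Mllt3 are thus favoured by the choice. They are given as description only.

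Levels were compared between factors only per kilobase of the longest transcript, which assumes even coverage. In wild type the order of normalised reads per kilobase was Mllt3 (231 ± 39.5), Etv6 (229 ± 19.6), Hlf (222 ± 40.8), Meis1 (140 ± 27.3), Mecom (125 ± 39.7), Fli1 (107 ± 77.0), Erg (102 ± 30.2), Gfi1 (49.3 ± 25.5) and Prdm16 (30.0 ± 11.0; SD, n = 4). Each neighbouring pair in that order overlapped between libraries. In libraries labelled knockout Etv6 came first at 262 ± 18.7 (243 to 287) and did not overlap with the next, Hlf (160 ± 16.3, 141 to 180). Mllt3 (138 ± 26.2), Meis1 (136 ± 12.5), Fli1 (114 ± 47.7), Mecom (70.6 ± 17.8) and Erg (63.6 ± 13.4) followed, each overlapping with its neighbour. Gfi1 (21.7 ± 3.81, highest 25.3) lay below every value of Erg (lowest 48.7) and overlapped with Prdm16 (15.0 ± 7.65).

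Around the 9 factors, 9 lists of partners, relatives and targets gave 122 tested entries, of which 8 rose, 1 fell and 113 did not pass (limma). Over all 10989 genes limma passed 1.68% higher and 2.12% lower, and 19.7% had an unadjusted p under 0.05. DESeq2 passed 6.95% of all genes and edgeR 341 genes. The list of heptad and partner factors joins other blood factors to Tal1, Lyl1, Lmo2, Gata2 and Runx1, which bind stem cell enhancers with ERG and FLI1. In this list 1 of 12 rose and 11 did not pass, with a median log2 difference of 0.24, which turned to -0.14 with the GC trend removed. Nfe2, a factor of platelet formation outside the heptad, rose from 1486 ± 153 to 2764 ± 74.4 (adjusted p = 0.00780). This call was lost with the GC trend removed (log2 difference 0.73, limma adjusted p = 0.0554). Myb, a factor of progenitor proliferation, was 932 ± 102 in wild type and 590 ± 102 in libraries labelled knockout, with no overlap, and did not pass (0.0709). Of 7 tested relatives in the PR domain and GFI families, Gfi1b rose and 6 did not pass (median 0.10), with Prdm2 at 43.0 ± 16.5 and 59.9 ± 19.2.

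Of 17 tested corepressors that work with MECOM, PRDM16, ETV6 and GFI1, 1 rose, 1 fell and 15 did not pass (median log2 difference -0.05). Ehmt2, the G9a histone H3 methyltransferase, rose by 1.37 on the log2 scale (limma adjusted p = 0.00852). Hdac3, the deacetylase of the NCoR complex, fell from 526 ± 171 to 244 ± 26.3, a log2 change of -1.05 (adjusted p = 0.0394). With the GC trend removed the log2 difference was 0.78 for Ehmt2 (adjusted p = 0.175) and -0.97 for Hdac3 (0.126).

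Partners of MLLT3 and MEIS1 did not pass singly. Of 17 tested members of the elongation and DOT1L complexes 0 passed in limma (3 at an unadjusted p under 0.05), edgeR passed 0 and DESeq2 1 (median log2 difference 0.10). Psip1, the LEDGF chromatin tether of the MLL complex, was 618 ± 99.0 and 327 ± 104 with no overlap (adjusted p = 0.0513), and Cdk9, the elongation kinase, 633 ± 80.4 and 861 ± 123 (0.225). Of 13 MEIS1 cofactors 0 passed in limma (5 at an unadjusted p under 0.05), edgeR passed 0 and DESeq2 1 (median -0.10, and 0.18 with the GC trend removed). Hoxa9, the HOX partner of MEIS1, was 590 ± 91.1 and 375 ± 130.1 (adjusted p = 0.143), and Hoxa5 281 ± 154 and 123 ± 39.5 (0.125).

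Among 12 other ETS factors 10 lay below 0 (median log2 difference -0.42), but 0 passed in limma (2 at an unadjusted p under 0.05), and edgeR and DESeq2 passed 0. Etv3, an ETS repressor, was 196 ± 18.2 and 103 ± 36.1 (limma adjusted p = 0.143), and Elf4 398 ± 39.4 and 611 ± 185 (0.207). For the 3 genes of the PAR bZIP family and NFIL3, relatives and antagonist of HLF, 0 passed in limma (1 at an unadjusted p under 0.05), and edgeR and DESeq2 passed 0 (median 0.86). Tef was 143 ± 49.5 and 255 ± 59.0 (adjusted p = 0.159), and Nfil3 32.2 ± 29.5 and 43.9 ± 16.5 (0.496).

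Other regulators of stem cell self-renewal lay mostly below 0, as 7 of the 9 factors did. Of 23 tested, 21 had a log2 difference below 0, against 48.7% of all genes, with a median of -0.42. In limma 0 passed (9 at an unadjusted p under 0.05, against 19.7% of all genes). EdgeR passed 0 and DESeq2 4, where DESeq2 passed 6.95% of all genes. Cited2, a co-regulator needed for HSC maintenance, was 429 ± 172 in wild type and 214 ± 38.7 in libraries labelled knockout, and Ikzf1, the lymphoid factor Ikaros, 723 ± 82.2 and 460 ± 57.0 (adjusted p = 0.0864 for both). In both genes the groups did not overlap. With the GC trend removed 18 of the 23 lay below 0, with a median of -0.51 and 0 past the threshold in limma. These lists were compared with all genes by counts and medians only, with no list test.

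Of 18 tested genes described as targets of the factors, listed from general knowledge, 5 rose, 0 fell and 13 did not pass in limma. Over all genes 1.68% rose and 2.12% fell. The median log2 difference of the targets was 0.38, and edgeR passed 4 and DESeq2 5. Itga2b, the platelet integrin CD41, rose from 175 ± 84.5 to 556 ± 109 (adjusted p = 0.00852), and Gp9, a subunit of the von Willebrand factor receptor, from 39.3 ± 19.2 to 234 ± 101 (0.0145). Tie1, an endothelial receptor also present on HSCs, rose from 176 ± 45.3 to 465 ± 47.8 (0.0125), and Eng, a TGF-beta co-receptor, from 568 ± 157 to 1059 ± 173 (0.0305). The fifth was Pf4, the platelet chemokine, named after its values were seen (0.0493). Other platelet and endothelial genes of the list did not pass, among them the platelet receptor subunit Gp1ba (log2 difference 2.14, adjusted p = 0.132) and the endothelial receptors Kdr (-0.79, 0.734) and Tek (0.10, 0.908), named after their values were seen. Itga2b, Gp9 and Pf4 are also in the megakaryocyte marker list, whose sums differed between the groups. With the GC trend removed 0 of the 18 passed in limma, with a log2 difference of 1.24 for Itga2b, 2.19 for Gp9, 0.94 for Tie1 and 0.43 for Eng.

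**Figure D5:**
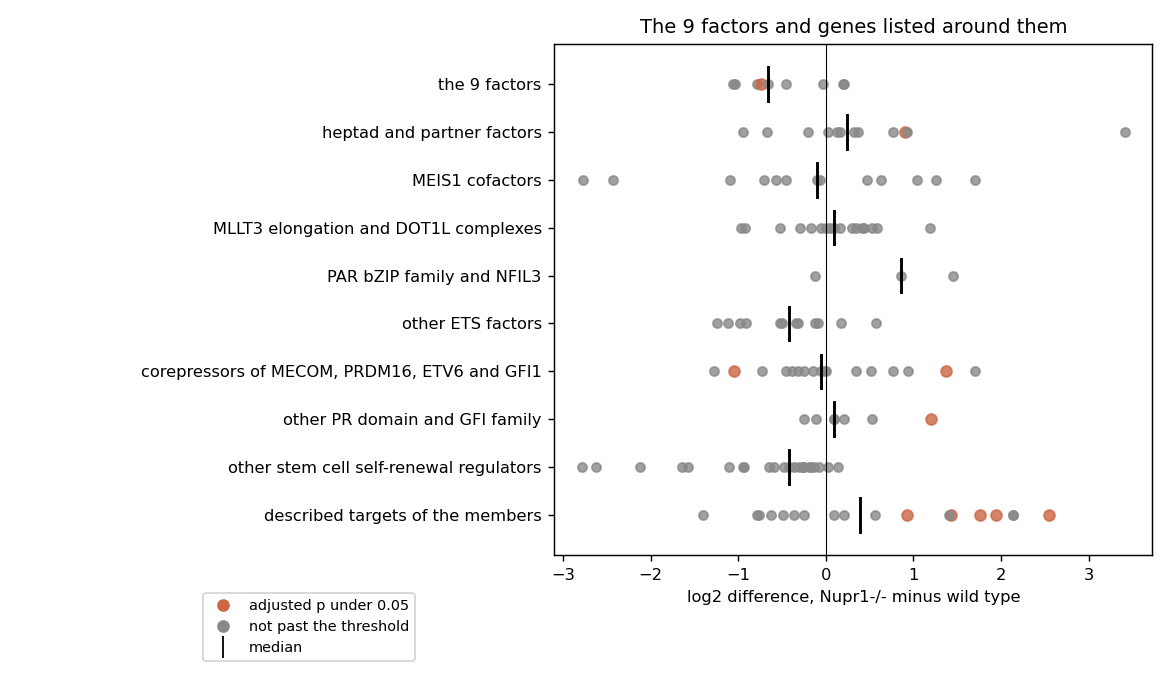
Log2 difference, labelled Nupr1-/- minus wild type (x axis), of every tested gene of the 9 factors and of the 9 lists around them (rows); orange points passed the test and black bars are medians. The medians are -0.66 for the 9 factors, -0.42 for other self-renewal regulators and other ETS factors, and 0.38 for described targets.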

How the data were processed

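Polyadenylated RNA of sorted HSCs was converted to double-stranded DNA after a published protocol, and libraries were built with the Nextera XT kit, per the labels' protocols. Per the submitters' processing notes reads went through HISAT2, featureCounts (Subread), bcl2fastq and DESeq2, in no stated order, on build mm10. No version or setting is given in the sources used here. The deposited table holds 1 normalised signal per gene and library: by the values, read counts divided by a size factor. All values (100%) were whole multiples of 1 step per library within 0.001, which gave back whole reads. For wild type library 3 the step is near 1 (0.997), and the recovery rests on its low values. Of 11855 entries 1 had no name and was left out. Every entry is above 0 in at least 3 libraries.

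The deposited values were transformed to log2(value + 1). A gene was tested when 4 or more libraries reached 10 (10989 genes). The test was limma 3.58.1 in R 4.3.3 (eBayes, trend and robust both on), two-sided, with Benjamini-Hochberg adjustment over all tested genes and a threshold of 0.05. The added value of 1 shrinks ratios between low values. Where libraries of low genes lie at 0, the log2 difference can instead exceed that of the means. Col1a2, with means of 27.4 in wild type and 38.4 in libraries labelled knockout, had a log2 difference of 2.40. Alternatives were edgeR 4.0.16 and DESeq2 1.42.0 on recovered reads, an added value of 5, no filter, TMM factors, each library left out, the replicate number as a block, and a smooth trend in GC content and transcript length removed (mgcv 1.9.3). GC content, length and overlaps came from GENCODE M21 (mm10), matched for 98.8% of entries. Scripts were tested on simulated data.

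Each library is from a separate mouse. The 9 factors, gene lists, naming rule and settings were chosen with earlier results of these data known. All 9 factors were named. Each list contributed up to 4 genes past the threshold, or its 2 genes of smallest p if fewer than 2 passed, from each marker list the 2 of highest mean, and for Mllt3 the 3 genes of highest Pearson correlation. Of the listed genes, 1 is not reported here.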

Additional observations from a re-analysis of the deposited data

How the results depend on the processing

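The number of factors past the threshold was 1 with limma. It was 0 without a filter on low values, 0 with edgeR, 0 with the GC and length trend removed, 0 with that trend removed and wild type library 2 left out (chosen after seeing the data), 2 with DESeq2 (Mllt3 and Mecom), and 0 to 1 when 1 library was left out. Over all genes the number went from 418 to 764 with DESeq2, 24 with the GC trend removed, 247 with it removed and wild type library 2 left out, and 48 to 883 when 1 library was left out (883 without wild type library 2, 119, 126 and 155 without wild type libraries 1, 3 and 4, and 60, 48, 150 and 238 without libraries 1 to 4 labelled knockout). On the first principal component of all tested genes (25.6% of variance) wild type library 2 lay at -126.5, against 0.81 to 36.9 in the other libraries. With the replicate block 277 genes and 1 factor passed. Same-numbered libraries had deviations correlated at -0.0566 to 0.0148. With 4 libraries per group these values cannot decide whether the numbers stand for a pairing or a batch. Of 144 recomputed differences of single factors, 123 kept direction and side of the threshold. In 11 Mllt3 lost its call, in 1 Mecom gained one, and in 9 the sign turned. With 1 library left out, Fli1 ran from -0.072 (without wild type library 1) to 0.63 (without wild type library 2) and was also below 0, at -0.03, without library 3 labelled knockout. Meis1 ran from -0.18 (without wild type library 4) to 0.059 (without wild type library 2) and turned sign in 5 of these fits. Meis1 was 0.38 with the GC trend removed and 0.54 with wild type library 2 left out as well. The cause of the GC trend was not tested. Read counts limit Gfi1 (32 reads at the lowest) and Prdm16 (68) most.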
